A study of Mus musculus with 6 samples.

Results

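The 10 genes described here encode cardiac transcription factors, and they were chosen by name as Nkx2-5, Gata4, Gata6, Tbx5, Tbx20, Hand2, Mef2a, Mef2c, Mef2d and Irx4. All 10 were among the 14004 genes of the deposited expression table, and all 10 were expressed highly enough to be tested. The deposited splicing tables held 50 events in these genes out of 39201 events. RNA was taken from the heart ventricle of C57BL6 mice at P1, when they were 1 day old, and made into 3 libraries of wild-type (WT) animals and 3 of animals whose Rbpms gene, which encodes an RNA-binding protein, was knocked out (KO). Both groups share the strain, age and tissue, and the labels call the libraries of a group biological replicates 1 to 3. The labels state neither how the Rbpms allele was made nor the number of animals behind a library, so a p-value here covers no more than the library-to-library spread. The title of the series names noncompaction cardiomyopathy and the division and binucleation of cardiomyocytes as its subject, and the comparison of genotypes asks how ventricular RNA differs without Rbpms.

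These factors act as a network in the developing heart. Nkx2-5 (a homeodomain protein), Gata4 and Gata6 (zinc finger proteins), Tbx5 and Tbx20 (T-box proteins), Hand2 (a basic helix-loop-helix protein) and the Mef2 proteins (MADS-box proteins) bind the same enhancers in combination and switch on genes of the sarcomere, of calcium handling and of cardiac hormones. Irx4, an Iroquois homeodomain protein, is known as a factor of ventricular rather than atrial muscle. Transcripts of the Mef2 genes are spliced differently in muscle, brain and other tissues.

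Levels are RPKM values, which are scaled to the length of each gene and to the total of the listed genes. An order of genes by level therefore rests on the listed lengths, which ran from 1.525 kb for Nkx2-5 to 15.715 kb for Mef2c among the 10. The level of Rbpms itself was 33.1, 35.7 and 38.1 RPKM in WT and 0.594, 0.276 and 0.240 RPKM in KO. The summed level of 10 markers of ventricular muscle was 15918 to 16906 RPKM in WT and 11666 to 15300 RPKM in KO, and none of them was at 0. The median log2 change of these markers was -0.03. Actc1, the most abundant of them, weighs most in the sum, at 7795 RPKM in WT and 5908 RPKM in KO with overlapping libraries. Over all 12911 genes tested, 307 were higher and 515 lower in KO at an adjusted p below 0.05 (limma on log2(RPKM + 0.5)), and 416 were higher and 427 lower after rescaling each library by its median ratio. WT replicates 1 and 2 were closer to each other than any other pair of libraries, with an SD of the log2 ratio of 0.132 over 3677 genes against 0.244 to 0.496 for the other pairs. Of the marker lists, those of airway and lung summed to 515 to 711 RPKM in WT and 1.42 to 18.4 RPKM in KO, and those of smooth muscle to 852 to 1004 RPKM in WT and 178 to 260 RPKM in KO. Of these lists, Scgb3a2, Scgb1a1, Sftpb and Sftpd fell among the airway markers and Acta2, Cnn1, Myh11 and Smtn among the smooth muscle markers. Smtn had an adjusted p of 0.0491 (limma) and 0.0544 after rescaling, and it passed in 1 of 6 fits with a library left out. Ager of the airway list was higher in KO, at 0.857 RPKM in WT and 1.11 RPKM in KO, and neither it nor Tagln of the smooth muscle list passed. Scgb3a2, at 545 RPKM in WT, and Acta2, at 875 RPKM, made up most of these sums. Both sums move with the genotype, and so with every difference given here, and the part of these markers in the results was not tested.

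The RNA of all 10 factors was present in both genotypes, and none passed the test. In WT the highest level was that of Tbx20, at 60.8 ± 5.37 RPKM (SD, n = 3), and the lowest that of Mef2c, at 9.89 ± 0.245 RPKM (SD, n = 3). Of the 10 genes, 8 were lower and 2 higher in KO, and the log2 change ranged from -0.48 for Irx4 to 0.32 for Hand2 and Tbx5. With limma and Benjamini-Hochberg adjustment over all genes, 0 of the 10 had an adjusted p below 0.05, where 6.37% of all genes tested had one (2.38% higher and 3.99% lower). Irx4, Mef2d and Hand2 had an unadjusted p below 0.05, and 23.5% of all genes tested had one. The WT and KO libraries did not overlap for 4 of the 10, Irx4, Mef2d, Mef2a and Hand2, against 29.8% of all genes tested. The median log2 change of the 10 was -0.09, beside -0.03 over all genes, and the median size of the change without its sign was 0.17 beside 0.15. After rescaling each library by its median ratio over genes, the median of the 10 was -0.06 and 7 of them were lower.

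**Figure D1:**
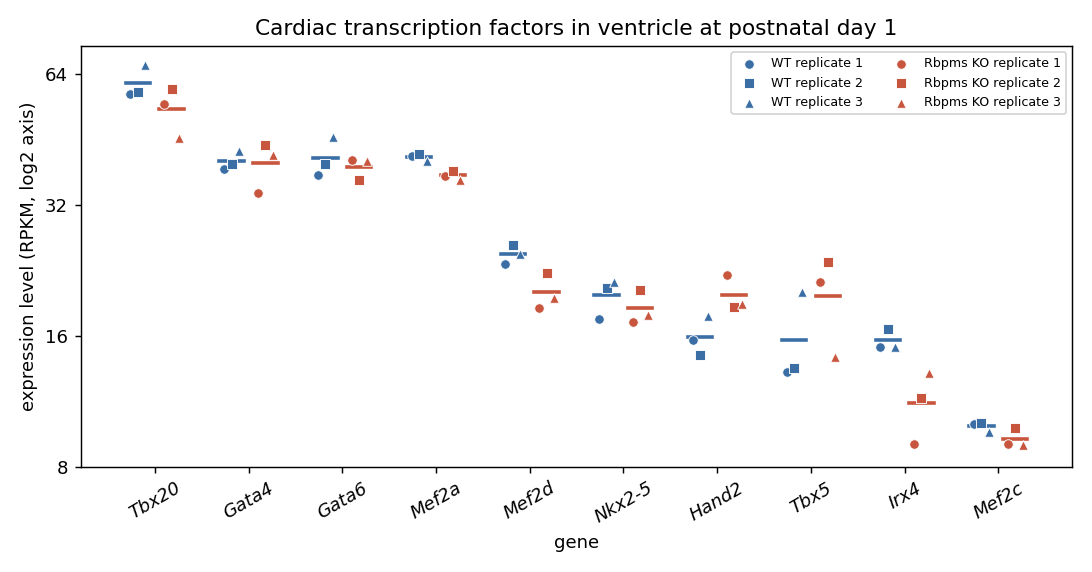
Level of each factor in each library in RPKM, on a log2 axis, with genes ordered by their mean level; blue marks are WT and red marks Rbpms KO, the shape of the mark gives the replicate, and bars are group means. Tbx20 stands highest and Mef2c lowest in WT, and the colours separate without overlap for Mef2a, Mef2d, Hand2 and Irx4.

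Tbx20 had the highest and Mef2c the lowest mean level in both genotypes. In WT, Tbx20 was followed by Mef2a at 41.2, Gata6 at 40.9 and Gata4 at 40.3 RPKM, whose libraries overlapped each other. Mef2d, at 24.6 RPKM, lay apart from its neighbours on both sides, and Nkx2-5 (19.8), Hand2 (15.9), Tbx5 (15.7) and Irx4 (15.6 RPKM) followed with overlapping libraries between neighbours. In KO, Irx4 at 11.2 RPKM overlapped with Mef2c at 9.28 RPKM, and Hand2 at 19.9 RPKM lay beside Mef2d at 20.1 RPKM with overlapping libraries.

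**Figure D2:**
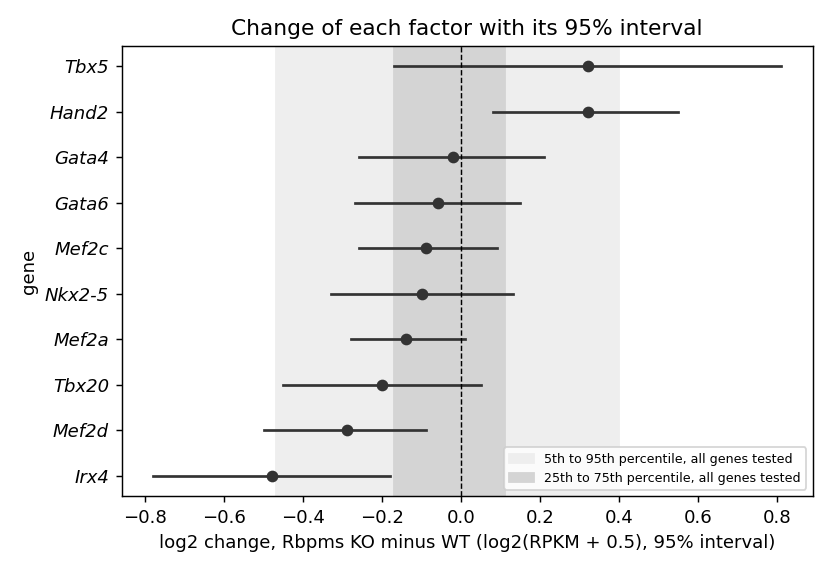
Log2 change from WT to Rbpms KO of each factor, on the scale of log2(RPKM + 0.5), with its 95% interval from limma as a line (n = 3 libraries a group). Light and dark grey bands hold the 5th to 95th percentile (-0.47 to 0.40) and the 25th to 75th percentile (-0.17 to 0.11) of all genes tested, and the intervals of Irx4, Mef2d and Hand2 do not reach 0.

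Irx4 lies on chromosome 13 at 73260479 to 73269608, on the plus strand of GRCm38. Its level was 15.1, 16.6 and 15.1 RPKM in WT and 9.0, 11.5 and 13.1 RPKM in KO. Every KO library was below every WT library, and KO replicate 3 was nearest to the WT range. The log2 change was -0.48 (SE 0.13, 95% interval -0.78 to -0.18), 0.719 times the WT level, with an adjusted p of 0.0707 (limma, Benjamini-Hochberg). Without KO replicate 3 the adjusted p was 0.0431, and this was the one fit with a library left out in which any of the 10 genes passed the test. In tissue, fewer cells of a type and less RNA per cell cannot be told apart, and this holds for every level given here. Of the 10 ventricular markers, Myh7 rose and Myh6 fell, and the other 8 did not pass the test.

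Of the 4 other Iroquois genes tested, Irx5 rose, and Irx1, Irx2 and Irx3 did not pass the test. Irx5, a paralog that sets the gradient of repolarization across the ventricular wall in mice, was at 2.53, 3.66 and 4.24 RPKM in WT and 5.13, 6.63 and 6.72 RPKM in KO. It rose by 0.76 on the log2 scale (SE 0.18, adjusted p = 0.0456, limma), and the adjusted p was 0.112 to 0.143 when WT replicate 1, WT replicate 2, KO replicate 2 or KO replicate 3 was left out. The ratio of Irx4 to Irx5 was 5.99, 4.54 and 3.56 in the WT libraries and 1.75, 1.73 and 1.95 in the KO libraries. The genotypes were apart in opposite directions for Irx4 and for Irx5, so their ratio could not overlap. Irx3 was at 7.45, 7.35 and 7.87 RPKM in WT and 7.16, 10.5 and 12.5 RPKM in KO, which overlapped (adjusted p = 0.265, and 0.0180 without KO replicate 1). Irx1 and Irx2 overlapped between genotypes as well, with adjusted p of 0.419 and 0.599 (limma). The genes whose pattern over the 6 libraries lay nearest to that of Irx4, by the root mean square distance of centred log2 values, were Cx3cl1 (0.0330) and Pdxk (0.0474), where the median over all genes was 0.321. Nearest genes, here and for Hand2 and Mef2d below, lie under the median by the way they were chosen. Cx3cl1 and Pdxk were low, at 1.43 and 0.898 RPKM in WT replicate 1, where adding 0.5 RPKM before the log shrinks changes.

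Nkx2-5, the other homeodomain factor, lies on chromosome 17 at 26838664 to 26845009, on the minus strand. Its level was 17.5, 20.6 and 21.3 RPKM in WT and 17.2, 20.4 and 17.8 RPKM in KO. The genotypes overlapped, with a log2 change of -0.10 (95% interval -0.33 to 0.13, adjusted p = 0.604, limma).

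Gata4, on chromosome 14 at 63198922 to 63271692, and Gata6, on chromosome 18 at 11052064 to 11085635, had levels that overlapped each other. Gata4 was at 38.6, 39.6 and 42.6 RPKM in WT and 34, 43.9 and 41.6 RPKM in KO. Gata6 was at 37.4, 39.7 and 45.7 RPKM in WT and 40.6, 36.5 and 40.2 RPKM in KO. The KO libraries surrounded or overlapped the WT libraries for both genes. The log2 change was -0.02 for Gata4 (95% interval -0.26 to 0.21) and -0.06 for Gata6 (-0.27 to 0.15). The ratio of Gata6 to Gata4 was 0.968, 1.00 and 1.07 in WT and 1.19, 0.833 and 0.965 in KO, so the KO libraries spread on both sides of the WT ones (exact two-sided permutation p = 0.8).

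Gata2, a paralog known from blood and endothelial cells, was at 1.74, 1.94 and 2.55 RPKM in WT and 4.39, 3.27 and 4.25 RPKM in KO. It rose by 0.80 on the log2 scale (SE 0.15, adjusted p = 0.0240, limma), but the adjusted p was 0.102 without WT replicate 1, 0.121 without WT replicate 2 and 0.0670 without KO replicate 3. Its libraries did not overlap. The sum of 8 markers of endothelium and endocardium, 190 to 221 RPKM in WT and 240 to 279 RPKM in KO, did not overlap either. Taken singly, 3 of the 8 markers were free of overlap and the rest overlapped. Of these 8 markers, 3 rose (Tie1, Pecam1 and Npr3), none fell and none was at 0, and none of the 3 passed without WT replicate 1 or without WT replicate 2. Without KO replicate 2, Tie1 and Pecam1 did not pass, and Tie1 did not pass without KO replicate 1 or 3. Their part in the level of Gata2 was not tested. Of 15 paralogs of the 10 factors, 10 were expressed highly enough to be tested, 2 rose (Gata2 and Irx5) and none fell. Their median log2 change was 0.19, beside -0.03 over all genes, of which 2.38% rose and 3.99% fell. Tbx18, the paralog with the highest mean level over the 6 libraries, was at 10.3 ± 1.17 RPKM in WT and 9.42 ± 0.468 RPKM in KO (SD, n = 3).

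Tbx5, on chromosome 5 at 119832668 to 119885219, is known for its part in septation and in the atria and conduction system, and it varied more within each genotype than the other factors. Its level was 13.2, 13.5 and 20.2 RPKM in WT and 21.2, 23.6 and 14.3 RPKM in KO. WT replicate 3 and KO replicates 1 and 2 were high, and the other 3 libraries were low, so the genotypes overlapped. The log2 change was 0.32 with a 95% interval of -0.17 to 0.81 (adjusted p = 0.406, limma), the widest interval among the 10 factors.

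The same 3 libraries were the highest in 5 of 7 markers of atrial muscle, namely Myl7, Myl4, Sln, Kcnj3 and Nr2f2, and not in Nppa and Nr2f1. They were also the highest for the fibroblast markers Col1a1, Col1a2 and Dcn, so the pattern was not particular to atrial muscle. Col1a1 was at 107, 122 and 172 RPKM in WT and 130, 147 and 106 RPKM in KO. Postn, Pdgfra and Tcf21 did not share the pattern, and Lum was at 38.8 RPKM in both KO replicate 2 and KO replicate 3. Myl7, the atrial regulatory myosin light chain, was at 748, 740 and 1330 RPKM in WT and 936, 1280 and 565 RPKM in KO. Myl4, the atrial essential light chain, was at 107, 105 and 177 RPKM in WT and 134, 195 and 109 RPKM in KO. Sln, the calcium pump regulator sarcolipin, was at 19.3, 23.4 and 40.7 RPKM in WT and 51.7, 52.5 and 29.6 RPKM in KO. Nppa, the atrial natriuretic peptide, was at 433, 318 and 468 RPKM in WT and 476, 840 and 564 RPKM in KO, so that KO replicate 3 was above WT replicate 3 and KO replicate 1. Nr2f1, a nuclear receptor, was at 0.978, 1.11 and 1.56 RPKM in WT and 1.01, 1.09 and 1.00 RPKM in KO, with WT replicate 3 alone apart from the rest. The 7 markers of atrial muscle together summed to 1325, 1204 and 2038 RPKM in WT and 1618, 2393 and 1285 RPKM in KO, none was at 0 and 0 of 7 were called. The ratio of Tbx5 to Myl7 was 0.0177, 0.0183 and 0.0152 in WT and 0.0227, 0.0184 and 0.0254 in KO, without overlap (exact two-sided permutation p = 0.1, the smallest possible). The gap was narrow, at 0.0183 in WT against 0.0184 in KO, and it holds for Myl7 only. The log2 change was -0.04 for Myl7, 0.11 for Kcnj3, 0.17 for Myl4, 0.17 for Nr2f2 and 0.70 for Sln. That of Tbx5 was 0.32, so the direction of such a ratio depends on the marker. The part of the atrial and fibroblast markers in the level of Tbx5 was not tested.

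**Figure D3:**
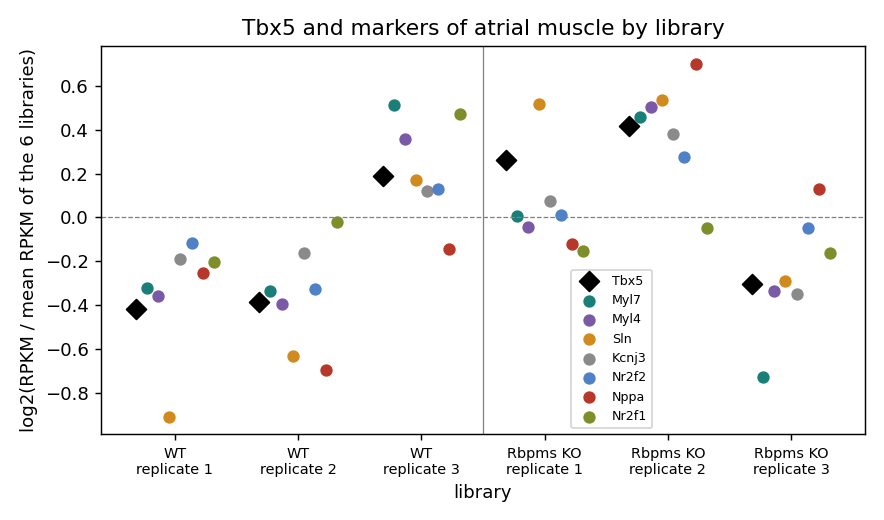
Level of Tbx5 and of all 7 markers of atrial muscle in each library, as log2 of the RPKM over the mean of the 6 libraries; black diamonds are Tbx5, circles the markers, and a vertical line parts the WT from the Rbpms KO libraries. Tbx5 and 5 of the markers are higher in WT replicate 3 and in KO replicates 1 and 2 than in the other libraries, and Nppa and Nr2f1 are not.

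Tbx20, on chromosome 9 at 24718138 to 24774303, is needed for growth of the chambers and was the most abundant of the 10 factors. Its level was 57.3, 58.2 and 67.0 RPKM in WT and 54.5, 58.9 and 45.6 RPKM in KO. One KO library lay within the WT range, and the log2 change was -0.20 (95% interval -0.45 to 0.05, adjusted p = 0.313, limma). The ratio of Tbx5 to Tbx20 was 0.231, 0.233 and 0.301 in WT and 0.389, 0.401 and 0.315 in KO. These ratios did not overlap, with an exact two-sided permutation p of 0.1, the smallest possible. The part of the atrial markers in this ratio was not tested.

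Hand2, on chromosome 8 at 57320983 to 57324633, is a basic helix-loop-helix factor required for the right ventricle. Its level was 15.6, 14.4 and 17.7 RPKM in WT and 22.1, 18.6 and 18.9 RPKM in KO. Every KO library was above every WT library. The log2 change was 0.32 (SE 0.10, 95% interval 0.08 to 0.55), with an unadjusted p of 0.0156 and an adjusted p of 0.115 (limma). In the authors' deposited table of an edgeR comparison, Hand2 had a log2 change of 0.36 and a false discovery rate of 0.0463, the one factor of 10 below 0.05, where 11.1% of all 14004 genes were. Irx4 and Mef2d had false discovery rates of 0.0958 and 0.160 in the authors' deposited table.

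Hand2 is expressed in muscle, endocardium and other cells of the heart. The summed level of the endothelial and endocardial markers given with Gata2 was also higher in every KO library than in any WT library, and their part in the level of Hand2 was not tested. The ratio of Hand2 to Irx4 was 1.03, 0.865 and 1.17 in WT and 2.46, 1.62 and 1.44 in KO. The genotypes were apart in opposite directions for the single genes, so their ratio could not overlap. The genes with the pattern nearest to that of Hand2 were Il17rd, at a root mean square distance of 0.0236, and Ifngr1, at 0.0348, where the median over all genes was 0.243.

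The Mef2 genes encode MADS-box activators of muscle genes, and all 3 had a lower mean level in KO. Mef2a, on chromosome 7 at 67231163 to 67372858, was at 41.3, 41.8 and 40.4 RPKM in WT and 37.3, 38.3 and 36.5 RPKM in KO. Mef2d, on chromosome 3 at 88142372 to 88172086, was at 23.4, 25.9 and 24.6 RPKM in WT and 18.5, 22.3 and 19.5 RPKM in KO. For both genes the genotypes did not overlap, and neither passed the test. The log2 change was -0.14 for Mef2a (SE 0.06, adjusted p = 0.234, limma) and -0.29 for Mef2d (SE 0.09, unadjusted p = 0.0106, adjusted p = 0.0952, limma).

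Mef2c, on chromosome 13 at 83504034 to 83667080, is the family member without which the heart tube of mouse embryos does not loop. It was at 10, 10.1 and 9.61 RPKM in WT and 9.03, 9.81 and 8.99 RPKM in KO, with overlapping libraries and a log2 change of -0.09 (95% interval -0.26 to 0.09, adjusted p = 0.531, limma). The summed Mef2 level was 74.7, 77.7 and 74.7 RPKM in WT and 64.8, 70.4 and 64.9 RPKM in KO. Mef2a gave 54.4 ± 0.805% of that sum in WT and 56.1 ± 1.59% in KO (SD, n = 3), Mef2c gave 13.1 ± 0.290% and 13.9 ± 0.0550%, and Mef2d gave 32.6 ± 1.08% and 30 ± 1.59%. The shares of Mef2a and Mef2d overlapped between genotypes, and those of Mef2c did not. These shares rest on listed lengths of 14.681 kb for Mef2a, 15.715 kb for Mef2c and 5.985 kb for Mef2d. Junction reads of the exon pair described below did not place Mef2d above Mef2c, at 76 to 134 and 97 to 145 a library. Ampd2 and Mthfd1 had the patterns nearest to that of Mef2d, with root mean square distances of 0.0223 and 0.0224, beside a median over all genes of 0.216.

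Of the 50 splicing events of the 10 genes, 42 were in Mef2 transcripts, 22 in Mef2a and 10 each in Mef2c and Mef2d. Gata4 and Tbx20 had 3 events each, Gata6 and Tbx5 had 1 each, and Nkx2-5, Hand2 and Irx4 had none. The headers name 2 sets of 3 libraries without their genotype, so the sets are called first and second and no genotype is given to either. An inclusion level is the share of transcripts, from 0 to 1, that use the longer or first form of the event, as read from reads across splice junctions. None of the 50 events, in the authors' deposited table, had a false discovery rate below 0.05, where 1.35% of all 39201 events did. The smallest false discovery rate among the 50 was 0.648 and 1 event had a p-value below 0.05 in the authors' deposited table, and with reads within exons included none of 52 events had a false discovery rate below 0.05, beside 1.4% of all events. At least 10 junction reads supported 43 of the 50 events in every library. Levels stayed between 0.05 and 0.95 in every library for 16 events, 14 of them in Mef2 genes, and 18 events were at 0.95 or above throughout. The 16 are listed events and not separate choices, since the Mef2a exon pair described below was listed more than once. Other Mef2a events among the 16 paired an exon of 191 bases with an exon of 204 bases. As skipped-exon events with at least 10 junction reads in every library, both exons were at 0.95 or above throughout. The levels of these pairs thus do not measure a choice between the exons.

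The alternative segment common to all 3 Mef2 genes is a pair of exons of which a transcript usually holds one. It lies next to the exons of the DNA-binding region, and the choice between the pair is known to differ between skeletal muscle, heart and other tissues. The sequences of the 5′ exons are shown because Mef2a used this exon in a smaller share of transcripts than Mef2c and Mef2d in these hearts. They are given 5′ to 3′ on the transcribed strand from GENCODE release 21 (GRCm38), and capitals mark bases that are identical in the 5′ exons of all 3 genes.
Mef2a 5′ exon of the pair: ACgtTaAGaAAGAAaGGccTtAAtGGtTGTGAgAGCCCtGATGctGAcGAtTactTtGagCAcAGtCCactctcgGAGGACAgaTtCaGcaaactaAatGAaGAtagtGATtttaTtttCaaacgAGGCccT
Mef2c 5′ exon of the pair: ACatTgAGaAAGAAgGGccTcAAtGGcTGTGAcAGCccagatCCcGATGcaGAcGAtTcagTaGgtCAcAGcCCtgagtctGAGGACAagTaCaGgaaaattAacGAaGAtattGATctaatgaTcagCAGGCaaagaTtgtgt
Mef2d 5′ exon of the pair: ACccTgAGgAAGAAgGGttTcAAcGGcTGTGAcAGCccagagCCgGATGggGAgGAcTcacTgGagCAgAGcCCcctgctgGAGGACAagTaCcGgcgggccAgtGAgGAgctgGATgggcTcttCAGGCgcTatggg

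The 5′ exon of the pair is chr7:67268269-67268400 on the minus strand in Mef2a, chr13:83625265-83625408 on the plus strand in Mef2c and chr3:88158034-88158171 on the plus strand in Mef2d. It has 132, 144 and 138 bases in these genes. In pairwise alignments 65.3% of aligned positions were identical between Mef2a and Mef2c, 63.9% between Mef2c and Mef2d and 54.5% between Mef2a and Mef2d. All 3 genes shared 69 bases.

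Mef2a used both exons of the pair. The level of its 5′ exon was 0.624, 0.639 and 0.692 in the first set and 0.588, 0.653 and 0.680 in the second set of the authors' deposited table, from 537 to 722 junction reads a library. In Mef2c the 5′ exon dominated, with 0.969, 0.972 and 0.984 in the first set and 0.938, 0.977 and 0.975 in the second set of the authors' deposited table (97 to 145 reads). Mef2d lay nearer to Mef2c, with 0.849, 0.940 and 0.936 in the first set and 0.917, 0.868 and 0.961 in the second set of the authors' deposited table (76 to 134 reads). All 6 libraries of Mef2a were below all 6 of Mef2d and of Mef2c, and the sets overlapped for each gene. The levels of Mef2d and Mef2c overlapped each other. The other exon of the pair had 3 to 14 reads a library in Mef2d and 2 to 6 in Mef2c. The deposited p-value for the Mef2a pair was 0.698 in the authors' table. Counting error alone gave the Mef2a levels of single libraries exact Clopper-Pearson 95% intervals 0.0720 to 0.0840 wide. The smallest difference between sets that could be detected was not worked out.

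**Figure D4:**
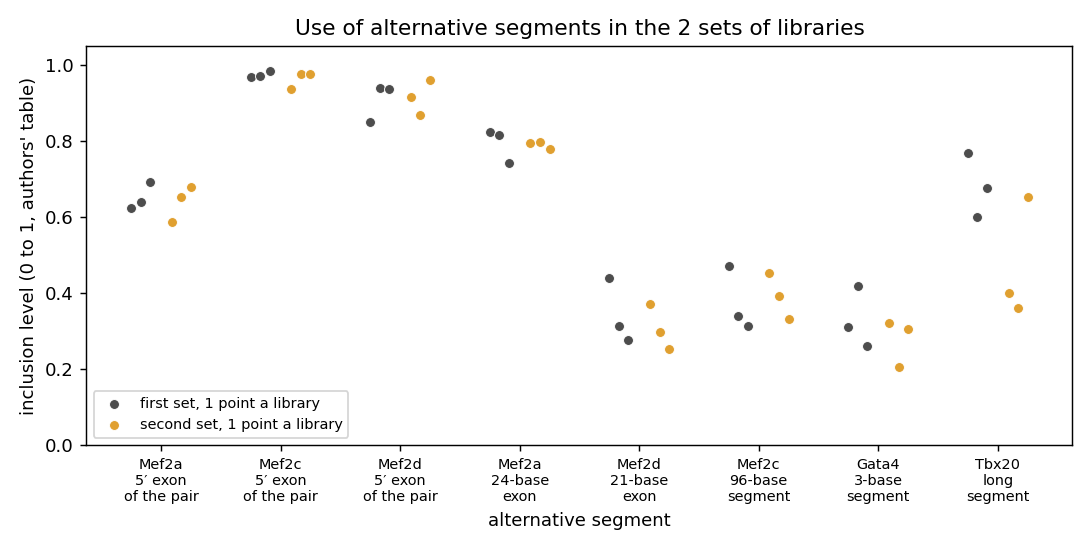
Inclusion level, from 0 to 1, of 8 alternative segments in the authors' deposited splicing table, with 1 point for each library; dark points are the first and yellow points the second set of 3 libraries, whose genotype the headers do not give. Mef2a uses less of the 5′ exon than Mef2c and Mef2d, whose points overlap each other, and the points of the sets overlap for all 8 segments.

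Mef2a and Mef2d also carry a very short exon further along, which is known to be included mostly in muscle and brain and is rich in acidic residues. The exons are printed to show their size and how they differ.
Mef2a small exon: tcggaggaagaggaattggagttg
Mef2d small exon: actgaggaccatttagatctg

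The Mef2a exon has 24 bases (chr7:67244521-67244544, minus strand) and the Mef2d exon 21 bases (chr3:88161781-88161801, plus strand). In the authors' deposited table the Mef2a exon had levels of 0.824, 0.815 and 0.742 in the first set and 0.794, 0.798 and 0.780 in the second set. The Mef2d exon had levels of 0.440, 0.313 and 0.276 in the first set and 0.371, 0.297 and 0.252 in the second set of the authors' deposited table, from 40 to 71 reads. Most Mef2a transcripts thus held the short exon and most Mef2d transcripts did not, in each of the 6 libraries. Intervals from counting alone were 0.0970 to 0.121 wide for Mef2a and 0.218 to 0.300 wide for Mef2d (exact Clopper-Pearson, 95%).

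Mef2c had a segment of 96 bases at the start of an exon (chr13:83662307-83662402, plus strand) that was kept or skipped by choice of the 3′ splice site. It is shown because both forms were present in every library.
Mef2c acceptor segment: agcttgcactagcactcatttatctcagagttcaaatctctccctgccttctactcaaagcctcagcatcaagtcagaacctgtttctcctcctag

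Levels of the Mef2c segment in the authors' deposited table were 0.472, 0.340 and 0.314 in the first set and 0.452, 0.393 and 0.333 in the second set. The sets overlapped, and 39 to 69 reads stood behind each value. Among the events with most junction reads, a skipped-exon event of Mef2a had levels of 0.993 to 1.00 and one of Mef2d 0.971 to 1.00 in the authors' deposited table. A further pair listed for Mef2c had levels of 0.5 to 0.606 in the authors' deposited table, from 93 to 128 reads, and it shares the 5′ exon above. The other exon of that pair had levels of 0.976 to 1.00 as a skipped-exon event, so these levels do not measure a choice between the exons. Events of one gene share junction reads and are not independent of each other.

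Outside the Mef2 genes, 2 events had intermediate levels in every library. In Gata4 the 3′ splice site varied by 3 bases, tag, at chr14:63204756-63204758 on the minus strand. The longer form of Gata4 had levels of 0.310, 0.420 and 0.260 in the first set and 0.322, 0.205 and 0.306 in the second set of the authors' deposited table, from 57 to 98 reads. In Tbx20 a segment of 374 bases on chromosome 9 at 24740330 to 24740703 had levels of 0.769, 0.600 and 0.677 in the first set and 0.400, 0.360 and 0.652 in the second set of the authors' deposited table. This was the 1 event of the 50 with a p-value below 0.05 in the authors' deposited table, at 0.0412 with a false discovery rate of 0.648. The sets overlapped, each library had 17 to 26 reads, and the intervals from counting alone were 0.437 to 0.512 wide.

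Of 32 cofactors and regulators of these factors, 30 were tested under the symbols searched, 1 fell and none rose. Their median log2 change was -0.10, beside -0.03 over all genes, of which 2.38% rose and 3.99% fell. Smarcd3, a subunit of the BAF chromatin remodelling complex that works with Gata4 and Tbx5, was at 5.66, 5.79 and 5.76 RPKM in WT and 4.10, 4.72 and 4.14 RPKM in KO. It fell by 0.37 on the log2 scale (SE 0.09, adjusted p = 0.0483, limma), and the adjusted p was 0.0687 to 0.213 with any 1 of the 6 libraries left out and 0.0630 after rescaling. The cofactors with the highest levels, the deacetylase Hdac2 and the calcineurin regulator Rcan1, were at 32.6 ± 2.28 and 28.2 ± 5.24 RPKM in WT and at 27.6 ± 1.47 and 33.9 ± 4.53 RPKM in KO (SD, n = 3), with adjusted p of 0.126 and 0.304 (limma).

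Among 35 genes known as transcriptional targets of these factors, all 35 were tested, 5 rose and 2 fell, and the other 28 did not pass. The median log2 change was 0.02, beside -0.03 over all genes, of which 2.38% rose and 3.99% fell. Xirp2, a Mef2 target that encodes an actin-binding protein of the intercalated disc, was at 3.59, 3.52 and 4.51 RPKM in WT and 14.2, 8.80 and 9.41 RPKM in KO. It rose by 1.35 on the log2 scale (SE 0.18, adjusted p = 0.00584, limma), also with each library left out.

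Nppb, a natriuretic peptide gene activated by Gata4, was at 268, 244 and 413 RPKM in WT and 896, 776 and 468 RPKM in KO. It rose by 1.19 on the log2 scale (SE 0.27, adjusted p = 0.0401, limma), and KO replicate 3 lay nearest to the WT range. Hopx, a homeodomain protein without DNA binding that lies downstream of Nkx2-5, was at 203, 191 and 188 RPKM in WT and 290, 294 and 309 RPKM in KO. It rose by 0.62 on the log2 scale (SE 0.07, adjusted p = 0.00308, limma), also with each library left out. Hrc, a calcium-binding protein of the sarcoplasmic reticulum and a Mef2 target, rose from 59.2 ± 2.42 to 74.1 ± 5.04 RPKM (SD, n = 3; adjusted p = 0.0480, limma).

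The myosin heavy chains, targets of several of these factors, moved in opposite directions. Myh6, the alpha chain, was at 2079, 2076 and 1898 RPKM in WT and 1215, 1577 and 1093 RPKM in KO, and fell by 0.66 on the log2 scale (adjusted p = 0.0362, limma). Myh7, the beta chain, was at 483, 477 and 594 RPKM in WT and 910, 745 and 851 RPKM in KO, and rose by 0.69 (adjusted p = 0.0162, limma). Atp2a2, the calcium pump SERCA2, fell from 1062 ± 110 to 749 ± 84.9 RPKM (SD, n = 3; adjusted p = 0.0470, limma). After rescaling by the median ratio, the adjusted p was 0.0518 for Myh6, 0.0658 for Hrc and 0.0860 for Atp2a2. Of the 7 targets that changed, Nppb, Hrc, Atp2a2, Myh6 and Myh7 lost the call when WT replicate 1 or WT replicate 2 was left out. Nppb also lost it without KO replicate 1 or 2, Hrc without WT replicate 3 or KO replicate 2 or 3, Atp2a2 without any single KO replicate, and Myh6 without WT replicate 3 or KO replicate 1 or 3. Actc1 and Myl2, the targets with the highest levels, were at 7795 and 3017 RPKM in WT and 5908 and 2729 RPKM in KO, with overlapping libraries.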

How the data were processed

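Polyadenylated RNA was sequenced with a stranded kit, per the labels. The deposited gene values are RPKM, which multiplied by the listed lengths sum to 1000000 in each library. Whole reads were not recovered from them, so no count test was run and the depth is unknown. Per the submitters' processing notes, which name no roles, the tools included edgeR 3.30.1, featureCounts 1.6.0 and FastQC 0.11.4, with the builds mm10 and GRCm38; the aligner is not given. The authors' deposited comparison table holds log2 fold changes, a likelihood ratio score and p-values per gene, per the file headers. The deposited splicing tables, named after rMATS, hold inclusion levels from 0 to 1, and read counts whose lost commas were restored from those levels.

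The 12911 genes that reached 0.5 RPKM in 3 or more of the 6 libraries were compared as log2(RPKM + 0.5) with limma 3.58.1 (R 4.3.3), using its trend option, and called at a Benjamini-Hochberg adjusted p below 0.05. The pseudocount understates changes of low genes. The limma test was tested on simulated data. Single ratios were compared with exact permutation tests. Splicing values are the authors'. The sequence of the 3′ exon of the Mef2 pairs is not reported here. Sequences and positions are from GENCODE release 21 (GRCm38), and exons were aligned with Biopython 1.88. Named were Rbpms, the 10 factors, genes of the lists of paralogs, other factors, cofactors and targets that passed the test, the 2 with the highest levels in each of these lists, the 2 genes nearest to the 3 factors with the smallest p, and the splicing events with most reads. Marker genes of cell types, and Irx1, Irx2 and the 2 events of Gata4 and Tbx20, were named after their values were seen. Factors, lists and tests were chosen with earlier results of these data known. Alternatives were other pseudocounts, filters, scaling, a replicate block, robust moderation, and libraries left out or merged.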

Additional observations from a re-analysis of the deposited data

How the results depend on the processing

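The count of genes that passed the test was 822. It was 545 with a replicate block, 213 with WT replicates 1 and 2 merged into 1 sample, and between 192 (without WT replicate 2) and 868 (without WT replicate 3) with a library left out. The count of the 10 factors that passed was 0, and 0 to 1 with a library left out, the 1 being Irx4 without Rbpms KO replicate 3. It was also 0 under the replicate block. Libraries with the same replicate number had correlations of deviations of 0.213, -0.271 and 0.122. With 3 libraries a group these values cannot decide whether such libraries share more than a number, and the labels do not say. The other alternatives for levels gave 597 to 979 genes and 0 factors. Directions of small changes turned in a few fits. The log2 change of Gata4 was 0.01 after rescaling by the median ratio and -0.10 to 0.09 with a library left out, turning without WT replicate 3 (0.02) and, at 0.09, without Rbpms KO replicate 1. The log2 change of Gata6 was -0.13 to 0.02 with a library left out, turning without WT replicate 3 (0.02), and that of Smyd1 was -0.13 to 0.09, turning without Rbpms KO replicate 1 (0.09). All other factors kept their direction in all 14 alternatives. No splicing event of the factors passed under any alternative. With 3 libraries a group and unknown depth, small changes in level are not detectable, and splicing levels of Mef2c, Mef2d and Tbx20 rest on few reads.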

Other observations

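Other transcription factors of the heart were set beside the 10. Of 32 such genes, 31 were tested, 2 rose and 1 fell, with a median log2 change of 0.01. Among all genes tested, 2.38% rose and 3.99% fell. Hopx, which rose, is described with the targets. Tcf21, a factor of epicardium and fibroblasts, was at 4.79, 5.80 and 6.20 RPKM in WT and 8.41, 8.44 and 8.28 RPKM in KO and rose by 0.55 on the log2 scale (adjusted p = 0.0221, limma). Its adjusted p was 0.0550 to 0.0953 without WT replicate 1, WT replicate 2, KO replicate 2 or KO replicate 3. Of 7 fibroblast markers, Postn and Tcf21 rose, and the list summed to 446 to 621 RPKM in WT and 513 to 659 RPKM in KO. Esrra, a nuclear receptor of energy metabolism, was at 14.2, 15.8 and 13.3 RPKM in WT and 10.2, 11.2 and 10.8 RPKM in KO. It fell by 0.40 on the log2 scale (adjusted p = 0.0352, limma), with an adjusted p of 0.0592 to 0.179 with any library other than WT replicate 3 left out and 0.0609 after rescaling. Smyd1, a muscle methyltransferase, had the highest level after Hopx, at 111 RPKM in WT and 108 RPKM in KO.

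Shox2, a factor of the sinus node, was at 3.12, 2.69 and 3.43 RPKM in WT and 0.880, 1.27 and 1.25 RPKM in KO. It fell by 1.14 on the log2 scale (adjusted p = 0.00387, limma), also with each library left out. Of 5 markers of the conduction system tested, Shox2 fell, Kcne1 rose and 3 did not pass, and these 5 summed to 37.8 to 40.1 RPKM in WT and 35.2 to 44.0 RPKM in KO. Of 6 epicardial markers none passed the test, and of 3 leukocyte markers tested Lyz2 fell. Kcne1 did not pass with any 1 of the 6 libraries left out, and Postn and Lyz2 did not pass without WT replicate 1, WT replicate 2, KO replicate 2 or KO replicate 3, nor Postn without KO replicate 1.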
